A study of Mus musculus with 4 samples.

Results

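Basal myoepithelial cells are the outer layer of the mammary epithelium, and 1310 of the 15344 barcodes that passed the depth and mitochondrial limits met their definition here (19382 barcodes were deposited). A barcode was taken as basal myoepithelial where it held at least 3000 unique molecule counts (UMIs) and at most 15% mitochondrial UMIs and met 5 limits on summed genes. Per 10000 UMIs it had at least 5 of Krt5 and Krt14 together, at least 5 of Acta2, Myh11, Cnn1 and Tagln together, under 20 of Krt8 and Krt18, under 10 of Col1a1, Col1a2 and Col3a1, and under 5 of C1qa, C1qb and Tyrobp. The barcodes were thus chosen by the measured values of these genes, which are given below as a description. The cells came from mammary gland organoids of virgin mice aged 8 to 9 weeks, made from fat pads from which lymph nodes had been left out. Organoids were cultured in Matrigel, a gel of basement membrane proteins (MATR), in a soft matrix (SOFT), in collagen (COL1) or in a stiff matrix (STIFF), and the labels do not say what the soft and stiff matrices were made of. Cells were marked with TotalSeq-A hashtag antibodies, which attach a readable oligonucleotide to the cell surface, and MATR and SOFT cells shared 1 channel of a droplet chip while COL1 and STIFF cells shared the other. No genetic change or drug is named in the labels, and neither mouse strain nor number of animals is stated.

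Myoepithelial cells lie between the luminal cells and the basement membrane. They carry basal keratins and the transcription factor p63, they hold a smooth muscle type of contractile apparatus, and they contract around the secretory cells when oxytocin binds its receptor, which is how milk is let down. They also deposit basement membrane, bind it through integrins and hemidesmosomes, and in transplantation assays the basal layer is where cells able to regenerate the gland have been found.

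In total 133608252 UMIs fell on 10615 barcodes of the COL1 and STIFF pool, and 131036333 UMIs on 8767 barcodes of the MATR and SOFT pool. Each condition was 1 culture, so no test of a difference between conditions was possible. Ratios below carry an exact 95% interval that covers counting error only and leaves out the spread between barcodes. The spread between cultures is unknown. Hashtags assigned barcodes to cultures by HTODemux, and 597 basal myoepithelial barcodes (68.9%) of the first pool and 269 (60.6%) of the second received no culture. HTODemux also took deeper barcodes for STIFF (median 16015 UMIs) than for COL1 (8837), so values under a relative rule, which compares both tags after division by their background and leaves 276 (31.9%) and 67 (15.1%) without a culture, stand beside the main ones. No basal myoepithelial barcode was given different cultures by the HTODemux and relative rules. Which hashtag marked which culture is given only by the names of the deposited matrices, and were it exchanged within a pool, every sign of that pool's comparison would turn. The pools shared 22 barcode sequences, of which 3 were basal myoepithelial in the former and 0 in the latter.

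Of the 1310 basal myoepithelial barcodes, 866 lay in the COL1 and STIFF pool, which was 11.3% of its 7668 barcodes within limits (exact Clopper-Pearson 95% interval 10.6% to 12.0%). The MATR and SOFT pool held the other 444, or 5.78% of 7676 (5.27% to 6.33%). The 2 sets were of similar depth, with medians of 8982.5 and 9298 UMIs, 2750.5 and 2767.5 genes, and 3.99% and 3.83% mitochondrial UMIs. By HTODemux 143 of them were from COL1, 118 from STIFF, 133 from MATR and 39 from SOFT. The relative rule gave 167, 410, 187 and 185. As a share of all barcodes given to a culture by HTODemux, they made up 9.88% of COL1, 4.86% of STIFF, 5.78% of MATR and 2.03% of SOFT, against 9.89%, 10.8%, 6.57% and 5.31% by the relative rule. The order of STIFF and COL1 therefore turned with the hashtag rule, and no order of the cultures is read from these shares. HTODemux found both tags on 8 and 3 of the barcodes, which entered the pool sums only, and no doublet caller was run.

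Genes that the definition did not use were set against the other classes of barcodes to check the name. Trp63, which encodes the basal transcription factor p63, was at 94.8 and 98.7 CPM in the 2 pools, COL1 and STIFF given before MATR and SOFT here and below. CPM is a gene's UMIs per 1e+06 UMIs of the summed barcodes. Luminal-class barcodes, those high in Krt8 and Krt18 and low in Krt5 and Krt14, had 1.16 and 0.934 CPM. Oxtr, the oxytocin receptor, was at 167 and 199.2 CPM, against 6.32 and 5.63 CPM in the luminal class. Both are marks of myoepithelial cells, and both were present in the barcodes of each pool. After each barcode was thinned to 3000 UMIs, an Oxtr UMI was found in 37.8% and 43.2% of them and in 1.55% and 1.22% of luminal-class barcodes. A Trp63 UMI was found in 23.0% and 24.1%, against 0.429% and 0.203% of luminal-class barcodes.

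The barcodes were then ranked against the luminal, fibroblast and macrophage classes, gene by gene. This ranking used the values that also formed the classes and is a description. Krt5 led it: its lower level of the 2 pools was 63.7 times its highest level in those classes. Next came Sostdc1 (50.3 times), which encodes a secreted antagonist of BMP and Wnt signals, Col17a1 (50.1 times), the transmembrane collagen of hemidesmosomes, and Wif1 (46.8 times), a secreted Wnt inhibitor. Vwa1, a matrix protein of basement membranes, Lmo1, a transcriptional cofactor, and Moxd1, a monooxygenase-like protein, stood at 43.0, 42.1 and 39.7 times. Oxtr stood at 26.4 times, and the contractile genes Myh11 and Cnn1 at 10.9 and 10.7 times. Fibroblast-class barcodes carried smooth muscle genes too, with Acta2 at 2082 and 1423 CPM there.

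**Figure D1:**
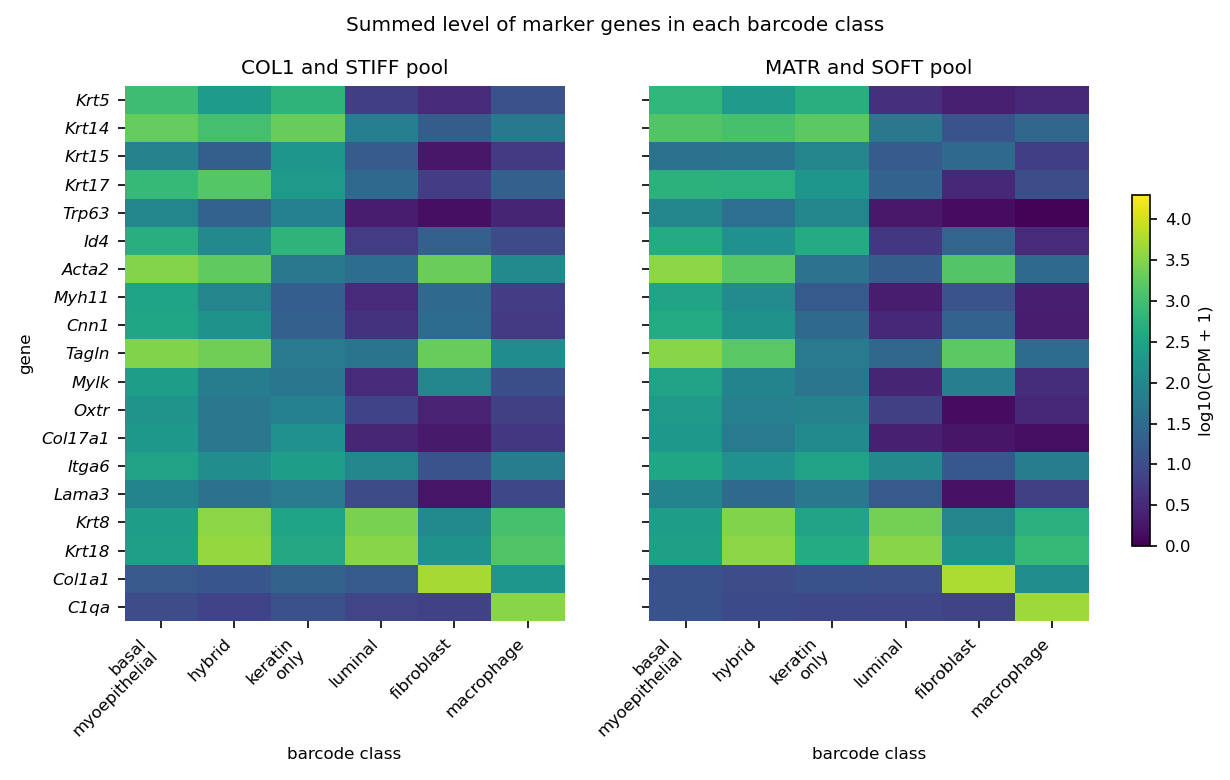
Each cell of the heat maps gives log10(CPM + 1) of a marker gene (y axis) in the summed barcodes of a class (x axis), with the COL1 and STIFF pool on the left and the MATR and SOFT pool on the right. Trp63, Oxtr and Col17a1, which did not enter the definition, are high in the basal myoepithelial column and low in the luminal, fibroblast and macrophage columns, while Acta2 and Tagln are also high in fibroblasts.

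Markers of other cell types were low in the barcodes. The 12 markers of luminal cells that lack hormone receptors summed to 1320 and 1060 CPM, against 10800 and 8030 CPM in the luminal class, and 1010 and 737 CPM in the fibroblast class. The 12 markers of receptor-positive luminal cells summed to 363 and 384 CPM, against 5160 and 4820 CPM in the luminal class. Fibroblast markers summed to 187 and 191 CPM (17000 and 18700 CPM in the fibroblast class), and macrophage markers to 111 and 121 CPM (32100 and 41500 CPM in the macrophage class). The endothelial list reached 14.8 and 8.75 CPM, with Pecam1, Cdh5, Kdr, Cldn5 and Tie1 at 0 in the MATR and SOFT pool. Adipocyte markers reached 2.45 and 1.79 CPM with Adipoq and Cidec at 0, and Schwann cell markers 15.1 and 17.7 CPM with Gfra3, Cdh19 and Foxd3 at 0. The pericyte and smooth muscle list reached 542 and 685 CPM, nearly all of it Ndufa4l2 (519.7 and 660.9 CPM), a mitochondrial protein also induced by low oxygen, while the pericyte gene Higd1b was at 0.

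The limits cut through continuous ranges. The keratin sum per 10000 UMIs had a median of 25.7 in the COL1 and STIFF pool and 16.7 in the MATR and SOFT pool, and the values nearest the limit were 5.23 inside and 4.57 outside in the former and 5.09 and 4.95 in the latter. The contractile sum had medians of 47.6 and 45.8, reached 423 and 682, and came within 5.01 and 5.08 inside and 4.95 and 4.97 outside. For Krt8 and Krt18 the nearest values were 19.7 and 20.6 in the first pool and 19.9 and 20.1 in the second. The collagen limit lay in a gap, with 9.69 and 11.8 as the nearest values in the first pool and 7.77 and 18.2 in the second, and so did the macrophage limit, with 4.13 and 7.63, then 4.42 and 7.42. The contractile limit alone left out 280 and 166 barcodes, and the luminal keratin limit alone 165 and 69.

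Those 2 neighbouring sets differed from the basal myoepithelial barcodes in other genes as well. The barcodes with basal keratins but few contractile UMIs kept Trp63 at 76.1 CPM in the COL1 and STIFF pool, Col17a1 and Sostdc1 (227 CPM) and had more Cyp26a1, which degrades retinoic acid (445 CPM, against 265.5 CPM). Oxtr was lower there, at 75.6 CPM against 167 CPM, and so were Mylk, the myosin light chain kinase (48.2 CPM against 244 CPM), and Myl9, a myosin light chain (101 CPM against 742 CPM). The hybrid barcodes, which met both basal limits but held more Krt8 and Krt18, had Trp63 at 21.5 CPM and Oxtr at 49.1 CPM, and were higher in Krt17 (1454 CPM against 745 CPM) and Krt7 (1103 CPM against 62.7 CPM). They made up 16.0% of hybrid and basal myoepithelial barcodes together in the COL1 and STIFF pool (13.8% to 18.4%) and 13.5% in the MATR and SOFT pool (10.6% to 16.7%). How far mixed droplets contributed to the hybrid barcodes was not tested.

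Within the set the basal keratins differed in how they were spread. Krt5, the type II keratin of basal cells, was at 921 CPM in the COL1 and STIFF pool and 673 CPM in the MATR and SOFT pool, and Krt14, its type I partner, at 1958 and 1378 CPM. At 3000 UMIs a Krt5 UMI was in 87.6% and 78.4% of barcodes, against 1.37% and 0.627% of the luminal class. The sum of Krt5 and Krt14 bounded both classes, so this contrast was set by the definitions. Krt15, a type I keratin of basal and progenitor cells in several epithelia, was found in 13.5% and 4.95%, so most barcodes were without it at that depth. Its UMIs were concentrated: the 5% of barcodes richest in them held 58.2% and 80.0%. Krt6a was rarer still, at 15.1 and 2.98 CPM from 22 and 12 barcodes.

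The contractile genes were present at high levels and varied widely between barcodes. Acta2, smooth muscle actin, was at 3225 and 3507 CPM in the 2 pools, and Tagln, transgelin, at 3050 and 3431 CPM. Cnn1, calponin, was at 347 and 436 CPM and Myh11, smooth muscle myosin heavy chain, at 316 and 330 CPM. Acta2 per 10000 UMIs ran from a lower quartile of 6.61 to an upper one of 44.9 in the COL1 and STIFF pool, and from 4.58 to 47.9 in the MATR and SOFT pool, with highest values of 240 and 376. Contractile genes outside the rule were present too: Tpm2, tropomyosin, at 1978 and 2788 CPM, Mylk at 244 and 295 CPM, and Lmod1, leiomodin, at 74.1 and 89.3 CPM. The luminal class had 2.27 and 1.75 CPM of Mylk.

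Adhesion, matrix and signalling genes completed the profile. Itgb1 and Itga6, laminin-binding integrin subunits, were at 545 and 477 CPM and at 294 and 354 CPM, and Col17a1 was at 197 and 198 CPM. Igfbp5, an IGF-binding protein, was at 4846 CPM in the COL1 and STIFF pool and 3911 CPM in the other. Sparc, a collagen-binding matrix protein, was at 1761 and 1785 CPM, and Postn, periostin, at 691 and 735 CPM. Id4, a basal regulator that inhibits helix-loop-helix factors, was at 513.9 and 448.2 CPM, and Runx1, a transcription factor, at 981 and 906 CPM. Lgr5, the R-spondin receptor that marks stem cells in several epithelia, was found in 17.6% and 15.3% of barcodes at 3000 UMIs, against 0.258% and 0.111% of the luminal class.

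A UMI of Mki67 or Top2a, both genes of dividing cells, was in 4.27% of the barcodes of the COL1 and STIFF pool (3.03% to 5.84%) and 3.6% of the MATR and SOFT pool at 3000 UMIs, and in 7.39% of the former before thinning. Luminal-class barcodes had 2.58% and 1.44%. Some genes sat in few barcodes: the richest 5% held 83.8% and 71.2% of the UMIs of Saa1, an acute phase protein, 85.1% and 89.3% of those of Ltf, lactoferrin, and 67.3% and 68.0% of those of Csn3, a casein. These are abundant in luminal cells, where Saa1 was at 1727 and 1319 CPM and Csn3 at 4899 and 3126 CPM. The part of luminal RNA in them was not tested.

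The first comparison set the 866 barcodes of the COL1 and STIFF pool against the 444 of the MATR and SOFT pool, which needed no hashtag. Most genes were alike in both pools. Of 9925 genes measured, 46 (0.463%) were at least 1.5-fold higher and 33 (0.332%) at least 1.5-fold lower. Ratios were taken on log2(CPM + 10), which draws ratios of low genes towards 1. Hpgd, Krt15 and immediate early genes were higher in the COL1 and STIFF pool, and Igfbp2, Cox4i2 and Car9 were lower. None of 20 contractile genes, 9 basal transcription factors, 25 integrin and hemidesmosome genes or 17 basement membrane genes passed 1.5-fold. The medians of these lists were -0.12, 0.08, 0.03 and 0.03 (log2). Acta2, Myh11, Cnn1 and Tagln, in the contractile list, also chose the barcodes, so its likeness may be partly set by the definition. The median over all genes was 0.00. Of 5 basal keratins 2 (Krt6a and Krt15) were higher and 0 lower, with a median of 0.50. Krt14, Krt5 and Krt17 were at 0.50, 0.45 and 0.36. Krt5 and Krt14 chose the barcodes, and the median is the value of Krt14, so it is a description only. The Krt6a UMIs came from 22 and 12 barcodes.

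Among genes carried by the barcodes, those at least 3 times higher in them than in the luminal class, Hpgd and Krt15 showed the largest ratios upwards. Hpgd, which inactivates prostaglandins, was at 217 CPM against 97.5 CPM, a 2.23-fold ratio (2.02 to 2.46). Krt15 was at 81.8 against 38.8 CPM, or 2.11-fold (1.80 to 2.48). Fn1, fibronectin, was 1.82-fold higher, with 67.6 against 37.2 CPM, but 5% of the barcodes held 83.1% and 80.7% of its UMIs, 1 barcode held 216 of 662, and the log2 ratio of 0.72 was 0.03 where Krt8 and Krt18 were held under 10. Igfbp3, another IGF-binding protein, was 1.69-fold higher, at 280 against 165 CPM, and Sostdc1 1.49-fold, at 288 against 193 CPM. Among the others, Has2, which makes hyaluronan, was at 58.4 against 35.8 CPM, Emid1, a matrix protein, at 141 against 84.4 CPM, Slc20a1, a phosphate carrier, at 50.2 against 28.9 CPM, and Rnase4, a secreted ribonuclease, at 122 against 77.4 CPM. Under at least 1 alternative Has2, Rnase4 and Igfbp3 lay just below 1.5-fold, with log2 ratios down to 0.57, 0.55 and 0.55.

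Downwards, Igfbp2 stood apart, at 38.0 CPM in the COL1 and STIFF pool and 112 CPM in the MATR and SOFT pool, which was 2.96-fold lower (2.59 to 3.38). Its UMIs came from 126 of 866 and 123 of 444 barcodes, and the richest 5% of barcodes held 72.6% and 60.5% of them. Igfbp2 was carried by the basal barcodes, with 0.703 and 0.488 CPM in the luminal class. Cox4i2, the low-oxygen isoform of a cytochrome oxidase subunit, was at 151 against 275 CPM, 1.82-fold lower. Car9, a carbonic anhydrase that is a standard marker of low oxygen, was at 74.0 against 126 CPM, 1.70-fold lower. Bst1, an ectoenzyme, was at 94.0 against 152 CPM, Ppp1r14a, an inhibitor of myosin phosphatase, at 45.3 against 75 CPM, and Tpm2 at 1978 against 2788 CPM. Defb1, a defensin, was at 293 against 436 CPM, while in the luminal class it went the other way (log2 0.96).

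Over all genes, without the requirement that the basal barcodes carry them, Hpgd and Igfbp2 again stood among the largest ratios, beside genes that the luminal class also held. Saa2 and Saa1 were 4.81-fold and 3.10-fold higher in the COL1 and STIFF pool, at 123 against 25.5 CPM and 326 against 105 CPM. The richest 5% of barcodes held 84.7% and 64.1% of the Saa2 UMIs, beside the 83.8% and 71.2% for Saa1. Atf3 and Fosb, immediate early genes of the AP-1 family, were at 99.6 against 39.6 CPM and 579 against 284 CPM, with luminal log2 ratios of 1.1 and 0.90. Of 20 genes of AP-1 and immediate early response, 10 passed 1.5-fold upwards in the basal barcodes (median log2 0.53) and 8 in the luminal class (median 0.25). Sprr1a, a cornified envelope protein, and Ly6d, a surface antigen, were lower, at 21.3 against 63.3 CPM and 129 against 313 CPM, and both were far more abundant in the luminal class, where Ly6d reached 2855 and 3936 CPM. With Krt8 and Krt18 under 10 the log2 ratio of Sprr1a went from -1.23 to -0.47.

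**Figure D2:**
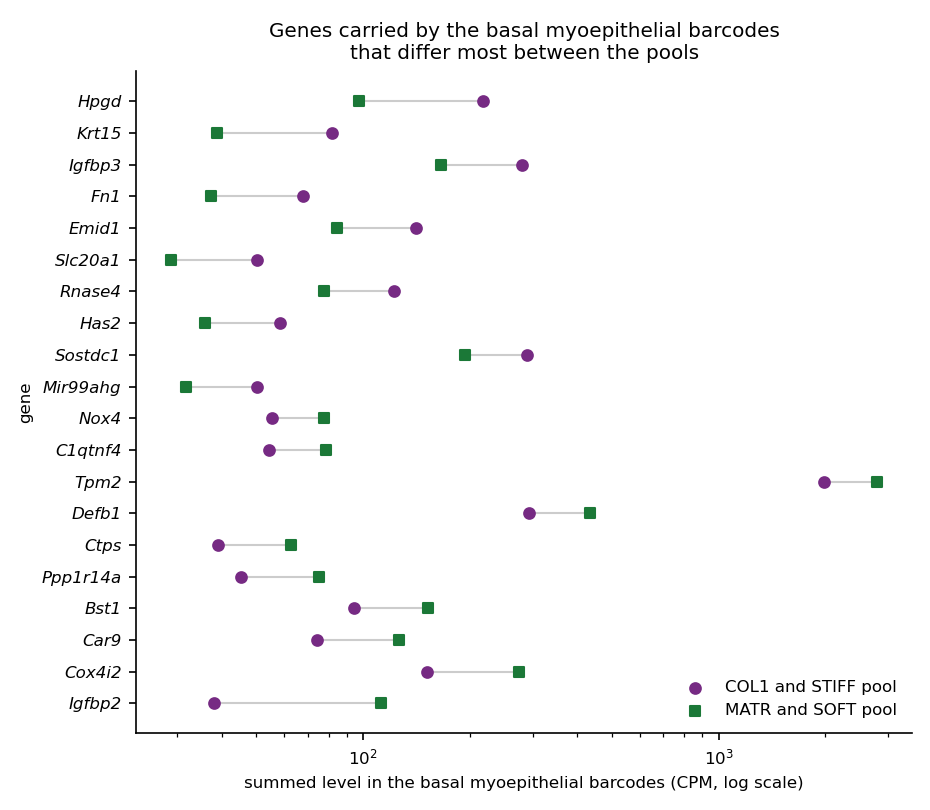
Points give the summed level (x axis, CPM on a log scale) of the carried genes with the largest ratios (y axis) in the basal myoepithelial barcodes of the COL1 and STIFF pool (circles) and of the MATR and SOFT pool (squares), with 1 value per pool. Hpgd lies at 217 against 97.5 CPM at the top and Igfbp2 at 38.0 against 112 CPM at the bottom.

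The pool comparison joined cultures that differed from each other. Within the COL1 and STIFF pool, where both cultures shared a channel, genes of low oxygen and glycolysis were higher in the COL1 basal barcodes, and Krt15, Hpgd, Igfbp3 and Igfbp5 were higher in the STIFF ones. Of 7186 genes measured by HTODemux, 196 (2.73%) were at least 1.5-fold higher in COL1 and 169 (2.35%) at least 1.5-fold lower. Of the 17 genes of low oxygen and glycolysis, 11 were higher and 0 lower, with a median log2 ratio of 0.62 against -0.03 over all genes. By the relative rule 9 of 17 were higher (median 0.59), with 179 of 8850 genes (2.02%) higher over all. In luminal-class barcodes of the same cultures 3 of the list were higher, and its median was -0.00. The summed markers of receptor-negative luminal cells were alike in both sets of basal barcodes, at 1237 CPM in COL1 and 1231 CPM in STIFF.

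Adm, the precursor of the vasodilator peptide adrenomedullin, had the largest ratio. It was at 115 CPM in COL1, 5.84 CPM in STIFF, 14.5 CPM in MATR and 31.5 CPM in SOFT, so COL1 was high and STIFF low. COL1 over STIFF was 19.8-fold (11.3 to 37.8), from 200 against 13 UMIs, and the relative rule gave 115 against 5.64 CPM. Luminal-class barcodes had 30.6 CPM in COL1 and 35.9 CPM in STIFF. At 3000 UMIs an Adm UMI was in 22.4% of COL1 basal barcodes (15.8% to 30.1%) and 0.847% of STIFF ones (0.0215% to 4.63%), and before thinning in 35.7% and 7.63%. Its UMIs in COL1 came from 51 of 143 barcodes, with 40.5% of them in the richest 5%.

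The other genes of the list with the largest ratios were a growth factor, an endoplasmic reticulum oxidase and a mitochondrial protein. Vegfa, the endothelial growth factor, was at 353 CPM in COL1, 103 CPM in STIFF, 187 CPM in MATR and 210.0 CPM in SOFT, 3.43-fold from STIFF to COL1 (2.94 to 4.01). Ero1l, which oxidises disulfide-forming enzymes of the endoplasmic reticulum, was at 179 against 53.4 CPM, and Bnip3, which promotes removal of mitochondria, at 211 against 85.3 CPM. Ndrg1, a stress-responsive gene, was at 423 against 190 CPM, and Slc2a1, the glucose carrier GLUT1, at 205 against 101 CPM. Ero1l and Ndrg1 were also higher in luminal-class COL1 barcodes (log2 0.71 and 0.94), whereas Vegfa, Bnip3 and Slc2a1 had luminal log2 ratios of 0.16, -0.16 and -0.06. Egln3, an oxygen-sensing prolyl hydroxylase outside the list, was at 154 CPM in COL1, 30.5 CPM in STIFF, 109 CPM in MATR and 108 CPM in SOFT. STIFF was the low culture for it, 5.06-fold below COL1 (3.87 to 6.71), and the luminal log2 ratio was 0.08.

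**Figure D3:**
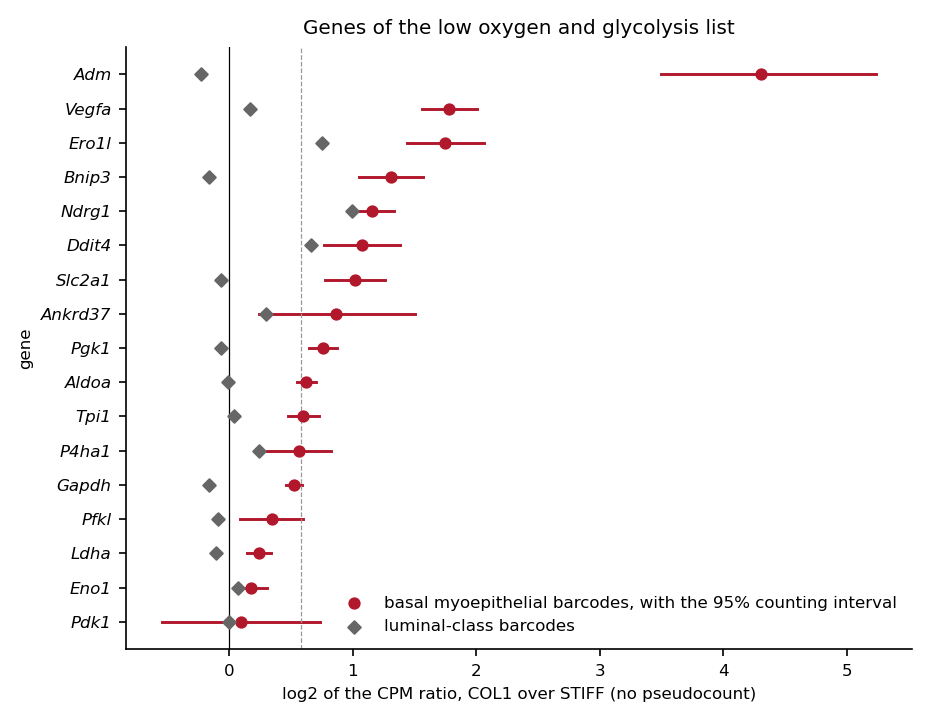
The x axis gives log2 of the COL1 over STIFF ratio of CPM, without a pseudocount, for 17 genes of low oxygen and glycolysis (y axis). Circles with bars are the basal myoepithelial barcodes with the exact 95% counting interval, diamonds the luminal class of the same cultures, the solid line equal levels and the dashed line 1.5-fold. Adm lies furthest right, and most circles lie to the right of their diamonds.

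Carried genes showed the same split. Nox4, an NADPH oxidase, was at 133 CPM in COL1, 42.6 CPM in STIFF, 78.1 CPM in MATR and 78.8 CPM in SOFT, with COL1 over STIFF at 3.12-fold (2.45 to 4.01). Car9 was at 139, 50.7, 108 and 128 CPM, 2.74-fold between COL1 and STIFF (2.18 to 3.46), and Cox4i2 at 272, 106, 271 and 214 CPM, 2.57-fold. For both, STIFF was the low culture and the other 3 lay closer together. Klk8, a secreted protease, was at 96.9 against 40.4 CPM, but at 94.0 against 62.2 CPM by the relative rule (log2 0.53), which is under 1.5-fold. Ctps, CTP synthase, was at 75.5 against 33.7 CPM.

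Upstream sequence is shown for 5 of these genes, and for Krt5, the keratin that leads the basal profile, so that the presence of the core of the hypoxia response element can be seen beside the levels. Each line gives the 250 bases before the start of transcription in RefSeq on GRCm38.p6, 5′ to 3′ on the gene's strand, and capitals mark the motif ACGTG or its reverse complement CACGT. The windows are Adm at chr7:110627407-110627656 (plus strand), Egln3 at chr12:54203875-54204124 (minus), Car9 at chr4:43506776-43507025 (plus), Slc2a1 at chr4:119108495-119108744 (plus), Bnip3 at chr7:138909507-138909756 (minus) and Krt5 at chr15:101712906-101713155 (minus).
Adm: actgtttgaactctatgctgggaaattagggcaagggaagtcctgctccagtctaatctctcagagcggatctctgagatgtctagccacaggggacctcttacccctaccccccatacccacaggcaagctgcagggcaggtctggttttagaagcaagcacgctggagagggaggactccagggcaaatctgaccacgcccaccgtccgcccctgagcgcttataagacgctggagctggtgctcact
Egln3: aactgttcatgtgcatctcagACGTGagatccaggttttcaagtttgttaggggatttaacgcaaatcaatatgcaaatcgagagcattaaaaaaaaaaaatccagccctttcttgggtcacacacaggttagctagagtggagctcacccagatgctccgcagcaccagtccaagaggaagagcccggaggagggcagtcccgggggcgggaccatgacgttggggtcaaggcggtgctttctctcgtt
Car9: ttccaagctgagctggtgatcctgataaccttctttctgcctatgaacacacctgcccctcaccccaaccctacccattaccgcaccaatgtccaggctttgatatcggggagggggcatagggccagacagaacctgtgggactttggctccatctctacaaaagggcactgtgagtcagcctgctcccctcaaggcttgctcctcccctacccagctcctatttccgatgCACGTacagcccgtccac
Slc2a1: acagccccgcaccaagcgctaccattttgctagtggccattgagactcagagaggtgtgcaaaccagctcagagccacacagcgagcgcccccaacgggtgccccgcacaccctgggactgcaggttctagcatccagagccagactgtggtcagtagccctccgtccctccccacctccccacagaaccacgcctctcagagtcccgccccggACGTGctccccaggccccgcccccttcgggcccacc
Bnip3: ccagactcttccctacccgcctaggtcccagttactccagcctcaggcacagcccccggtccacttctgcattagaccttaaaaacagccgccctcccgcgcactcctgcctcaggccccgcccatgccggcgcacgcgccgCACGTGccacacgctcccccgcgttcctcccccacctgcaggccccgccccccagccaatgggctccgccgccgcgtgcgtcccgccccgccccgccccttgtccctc
Krt5: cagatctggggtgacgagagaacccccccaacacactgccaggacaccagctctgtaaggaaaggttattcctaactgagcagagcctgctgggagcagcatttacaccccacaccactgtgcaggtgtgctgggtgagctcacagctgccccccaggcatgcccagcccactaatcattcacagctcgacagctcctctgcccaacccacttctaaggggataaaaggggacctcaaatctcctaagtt

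The Car9 motif began 18 bases before the start, that of Slc2a1 36 bases before it and that of Egln3 229 bases before it. Bnip3 held 2 overlapping matches, which began 108 and 107 bases before the start. Adm held no match in this window, and a TATAA box began 27 bases before its start. Krt5 held none either. Of the 17 genes of the list 15 had a window, and 9 of these (60.0%) held the motif, against 4998 of 27025 genes in the RefSeq table (18.5%). Of 19 contractile genes with a window 2 held it (10.5%). The list was chosen for low oxygen and glycolysis, so its share with the motif says nothing of these cultures. A match describes letters, not binding.

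Krt15 had the largest ratio downwards. It was at 17.9 CPM in COL1, 105 CPM in STIFF, 71.6 CPM in MATR and 24.5 CPM in SOFT, so that STIFF and MATR were high and COL1 and SOFT low. COL1 was 5.90-fold below STIFF (4.05 to 8.88), and the relative rule gave 21.5 against 110 CPM. The luminal class had 15.5 CPM in COL1 and 12.2 CPM in STIFF, which is close to the level of the COL1 basal barcodes. At 3000 UMIs a Krt15 UMI was in 5.59% of COL1 barcodes (2.45% to 10.7%) and 16.9% of STIFF ones (10.7% to 25%), and before thinning in 11.9% and 49.2%.

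Hpgd was at 63.4 CPM in COL1, 220 CPM in STIFF, 90.2 CPM in MATR and 99.7 CPM in SOFT. STIFF stood above the other cultures, and COL1 was 3.47-fold below it (2.82 to 4.3), or 53.2 against 257 CPM by the relative rule. Igfbp3 was at 137 CPM in COL1, 301 CPM in STIFF, 131 CPM in MATR and 201 CPM in SOFT, 2.20-fold lower in COL1 than in STIFF. Igfbp5 was at 3209, 6439, 5070 and 3519 CPM in the same order, 2.01-fold lower in COL1 than in STIFF (1.95 to 2.07), while the luminal class had 1772 and 2079 CPM. Vcan, the proteoglycan versican, was at 26.5 against 72.7 CPM and Emid1 at 75 against 152 CPM.

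Krt5 and Krt14, whose sum chose the barcodes through a limit that was the same for all cultures, are given as levels only. Krt5 was at 575 CPM in COL1, 1023 CPM in STIFF, 695 CPM in MATR and 719 CPM in SOFT. Krt14 was at 1215, 1816, 1126 and 1748 CPM in the same order. Because both genes chose the barcodes, no difference between cultures is read from these levels.

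**Figure D4:**
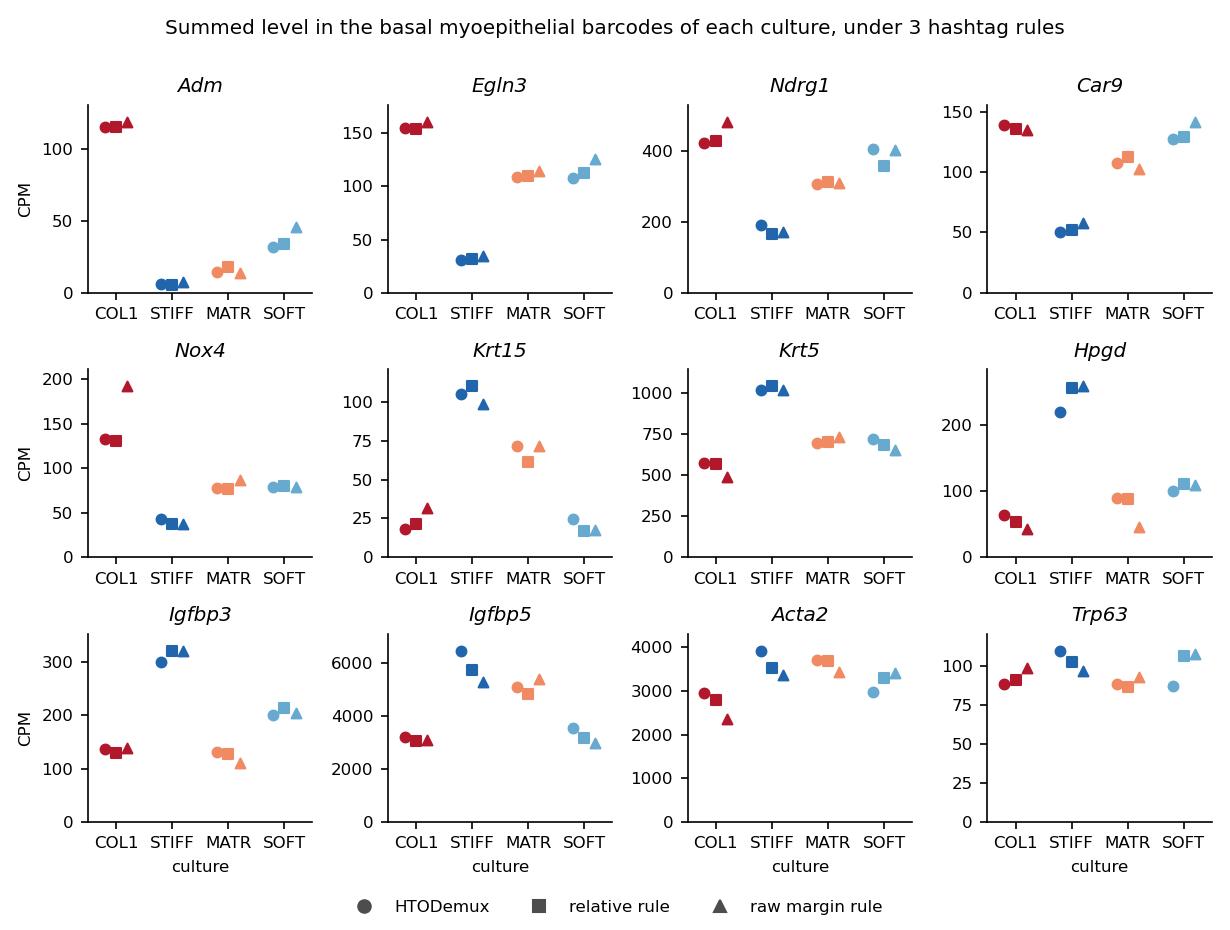
Each panel plots the summed level of a gene (y axis, CPM from 0) in the basal myoepithelial barcodes of the 4 cultures (x axis), with circles for HTODemux, squares for the relative rule and triangles for the raw margin rule. There is 1 culture per condition and no error bar. Background alone could meet the raw margin rule for STIFF and for SOFT, so the triangles are no independent check. COL1 is highest and STIFF lowest for Adm, Egln3 and Nox4 under each rule, and STIFF is highest for Krt15 and Hpgd. Krt5 and Acta2 entered the definition and are shown as levels only.

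Contractile genes, some of which chose the barcodes, and basal transcription factors differed less between COL1 and STIFF. Acta2 was at 2946 CPM in COL1, 3924 CPM in STIFF, 3716 CPM in MATR and 2966 CPM in SOFT, and Tagln at 3327, 3141, 3066 and 3071 CPM. Of 20 contractile genes 1, Tpm2, was higher in COL1 than in STIFF (log2 0.61, but 0.54 by the relative rule) and 0 were lower, with a median of -0.06. None of 11 genes that control contraction passed 1.5-fold, and Oxtr came closest (log2 -0.56), at 142 CPM in COL1, 215 CPM in STIFF, 238 CPM in MATR and 203 CPM in SOFT. Trp63 was at 88.8, 110, 88.7 and 87.5 CPM. Of 9 basal transcription factors Mef2c, a factor of muscle genes, was higher in COL1 (log2 0.65, and 0.55 without barcodes over 3 times the median depth).

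Some paracrine and matrix genes differed between COL1 and STIFF, in both directions. Of 22 genes of Notch, Wnt and paracrine signalling 4 were higher in COL1 and 2 lower, with a median of -0.14. Over all genes 2.73% were higher and 2.35% lower. Wnt6, a Wnt ligand, was higher (log2 0.92, from 42 against 18 UMIs), and so was Hes1, a Notch target (0.76), which lay just below 1.5-fold under 2 alternatives. Igfbp3 and Igfbp5 were the 2 lower ones (-1.09 and -1). Postn was higher in COL1 under each of the 3 hashtag rules (0.68, 0.72 and 0.75). The last of these, the raw margin rule, could be met for STIFF by background alone. A call kept or lost under it was thus no independent check. Other calls were lost under at least 1 alternative: Igfbp2 (0.88) was at 0.42 by the raw margin rule, and Hbegf, an EGF receptor ligand (0.61), at 0.13 without the deepest barcodes. Among matrix genes Tgm2, a transglutaminase (0.63), was at 0.44 by the raw margin rule, Col7a1, the anchoring fibril collagen (-0.64), at -0.51, and Thbs1, thrombospondin (-0.60), at -0.49, while Fn1 (-0.73) was at 0.00 among barcodes of 6000 to 20000 UMIs. Among 12 junction genes Cldn4 (0.82) was at 0.35 by the raw margin rule, Epcam (0.69) at 0.56 by the relative rule, and Dsg3, a desmosomal cadherin (-0.67), at -0.39 among barcodes of 6000 to 20000 UMIs. Saa1 was at 376 CPM in COL1 and 219 CPM in STIFF by HTODemux, with 85.8% and 85.7% of its UMIs in the richest 5% of barcodes, and the sign turned under the relative and raw margin rules.

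MATR and SOFT, the other pair in 1 channel, gave a comparison that rests on 133 and 39 barcodes by HTODemux. Scn7a, Sema3c, Prelp and the laminin chain Lamc1 were higher in the MATR basal barcodes by both HTODemux and the relative rule. Krt17 and Gpx2 were higher in the SOFT ones by both. The raw margin rule gave the same directions, but background alone could meet it for SOFT, so it was no independent check. Many other calls depended on the hashtag rule: of 46 named ratios past 1.5-fold, 12 passed it under all alternatives. Of 5687 genes 239 (4.2%) were at least 1.5-fold higher in MATR and 162 (2.85%) lower, against 128 (1.71%) and 91 (1.22%) of 7482 by the relative rule, which gave 187 and 185 barcodes. Summed markers of receptor-negative luminal cells were at 1414 CPM in MATR and 362 CPM in SOFT, with 6 of 6 measured ones higher in MATR, and their part in these differences was not tested. Few barcodes supplied much of the MATR counts of 2 of these markers. The richest 5% held 80.2% of 778 Csn3 UMIs and 94.7% of 209 Ltf UMIs, and 1 barcode held 152 of the latter.

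Of 14 basement membrane genes 5 were higher in MATR and 0 lower, with a median log2 ratio of 0.41 against -0.02 for the list in the luminal class and -0.02 over all genes. They were the laminin chains Lamc1 (1.24), Lama1 (0.79) and Lamb1 (0.61), the proteoglycan perlecan, Hspg2 (1.05), and the type IV collagen chain Col4a5 (0.62). Lamc1 had 135 against 13 UMIs, a 2.97-fold ratio (1.68 to 5.73). By the relative rule 3 of 15 were higher, with a median of 0.29, and by the raw margin rule 7 of 15, with a median of 0.51, where 261 of 6743 genes (3.87%) were higher over all and 171 (2.54%) lower. By the relative rule Hspg2 was at 0.44 and Col4a5 at 0.52.

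Of carried genes, Scn7a, a sodium channel, was at 102 CPM in MATR and 31.5 CPM in SOFT, 3.23-fold (1.99 to 5.56). Sema3c, a semaphorin, was at 130 against 52.5 CPM, Fst, follistatin, which binds activin, at 322 against 147 CPM, and Prelp, a matrix proteoglycan, at 266 against 129 CPM. Prelp was at 217 CPM in COL1 and 185 CPM in STIFF, and Fst at 240 and 295 CPM, so SOFT was the low culture for both. Gpx2, a glutathione peroxidase, was at 114 CPM in MATR and 217 CPM in SOFT, and Krt17 at 354 against 619 CPM. Fst was at a log2 ratio of 0.47 by the raw margin rule, and Anxa8, an annexin at 123 against 203 CPM, at -0.49 by the relative rule, so neither passed 1.5-fold there. Ifi27l2a, an interferon-induced gene, was 2.02-fold lower in MATR (101 against 205 CPM), but its sign turned under the raw margin rule. Ppp1r14a and Spred1, a MAP kinase inhibitor, were 2.48-fold and 1.93-fold higher in MATR by HTODemux and had log2 ratios of 0.47 and 0.09 by the relative rule.

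Contractile genes, some of which chose the barcodes, were again little different. By HTODemux 2 of 20 were higher in MATR and 0 lower (median 0.10), against 4.2% and 2.85% of all genes. By the relative rule 1 was higher and 2 lower (median -0.02), against 1.71% and 1.22% of all genes. Mylk was higher, with a log2 ratio of 0.73 and 0.58 to 0.83 over the alternatives. Actg2, enteric smooth muscle actin (0.70), was at 0.16 by the relative rule and 0.01 by the raw margin rule. Of 11 genes that control contraction 3 were higher. Itpr1, the calcium release channel, was at 0.82, 0.69 and 0.71 under the 3 hashtag rules, while Gnaq, the G protein that couples the oxytocin receptor (0.64), was at 0.33 among barcodes of 6000 to 20000 UMIs. The Notch ligands Dll1 (1.21, from 148 against 15 UMIs) and Jag1 (0.64) were at 0.55 and 0.01 by the relative rule, and Lgr6, an R-spondin receptor (0.74), at 0.43. Igfbp2 was at 0.60 by both rules but at -0.05 as a mean per barcode. Wnt6 (-0.89, from 36 against 24 UMIs) was at -0.11 by the relative rule and 0.30 by the raw margin rule, so its sign turned. Of 16 genes of low oxygen and glycolysis 0 were higher and 1 lower, Ero1l, with a median of -0.27, and Ero1l itself went from -0.78 to -0.06 among barcodes of 6000 to 20000 UMIs.

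Of 8 cell cycle genes measured 5 were lower in MATR than in SOFT, with a median of -0.71 against 0.14 in the luminal class. By the relative rule 4 of 15 were lower (median -0.41), and by the raw margin rule 7 of 12 (median -0.65). Over all genes 2.85%, 1.22% and 2.54% were lower under the HTODemux, relative and raw margin rules. Counts in SOFT were small by HTODemux, with 18 UMIs of Birc5 and 45 of Ube2c. Without barcodes that held a UMI of Mki67 or Top2a, both in the list, the median was 0.03. Of 5 interferon response genes 3 were lower by HTODemux (median -0.59), but 2 of 8 by the relative rule (median -0.19), and by the raw margin rule 0 of 7 were lower and 1 higher (median -0.00). The shares of all genes lower were those just given, and 3.87% were higher by the raw margin rule.

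Between channels, COL1 was set against MATR and STIFF against SOFT. Channel and culture cannot be told apart in these comparisons, which also share their samples with those above. For COL1 over MATR 122 of 6971 genes (1.75%) were higher and 77 (1.1%) lower. Of 17 genes of low oxygen and glycolysis 5 were higher and 0 lower (median 0.42, luminal class -0.17), with Adm 7.94-fold higher (5.36 to 12.2) and Vegfa 1.89-fold. For STIFF over SOFT 367 of 6050 genes (6.07%) were higher and 238 (3.93%) lower. Of 16 genes of the same list 0 were higher and 10 lower (median -0.64, luminal class 0.03), and 8 of 17 were lower by the relative rule (median -0.48), where 124 of 8860 genes (1.4%) were lower over all. For Adm, Egln3 and Vegfa, COL1 was the highest of the 4 cultures and STIFF the lowest. Markers of receptor-negative luminal cells summed to 1231 CPM in STIFF and 362 CPM in SOFT.

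AP-1 and immediate early genes were higher in the COL1 and STIFF channel in both comparisons. Of 20 genes 9 were higher in STIFF than in SOFT and 0 lower, against 6.07% and 3.93% of all genes. The medians were 0.54 in the basal barcodes and 0.45 in the luminal class. Dusp1, a phosphatase of MAP kinases, was 2.64-fold higher (2.20 to 3.18) and Fosb 3.36-fold (2.76 to 4.13), and the luminal log2 ratios were 0.65 and 1.23. The luminal class thus moved in the same direction for STIFF over SOFT. For COL1 over MATR 9 of 20 were higher and 0 lower (median 0.54), against 1.75% and 1.1% of all genes. Contractile genes gave 0 higher and 0 lower of 20 for STIFF over SOFT, and 0 higher and 1 lower of 20 for COL1 over MATR. Igfbp2 was 2.24-fold lower in COL1 than in MATR (1.81 to 2.79) and 3.003-fold lower in STIFF than in SOFT (2.09 to 4.3). The luminal log2 ratios were 0.10 and -0.00. In SOFT 1 barcode held 27 of the 57 Igfbp2 UMIs, and in STIFF the richest 5% of barcodes held 71.6% of 74.

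**Figure D5:**
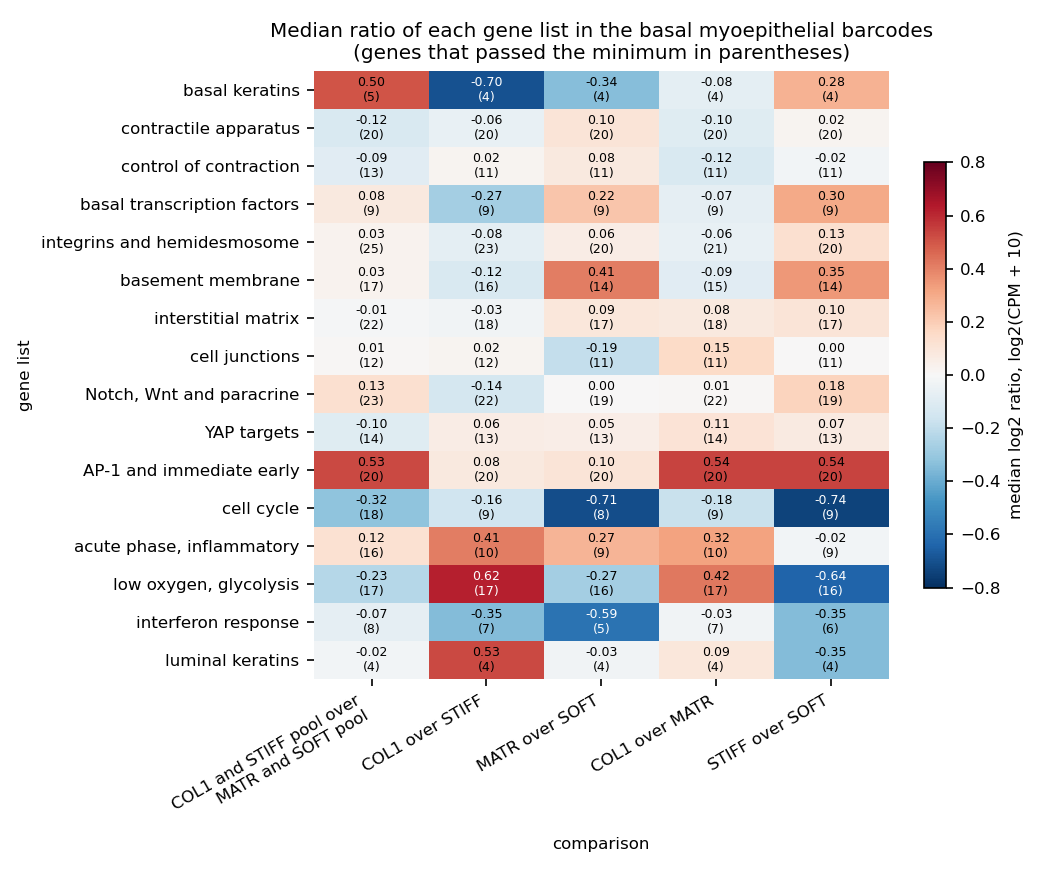
Colour and the upper number of each cell give the median log2 ratio of a gene list (y axis) in the basal myoepithelial barcodes for a comparison (x axis), and the number in parentheses gives how many genes passed the minimum. The low oxygen list is at 0.62 for COL1 over STIFF and -0.64 for STIFF over SOFT, while the contractile list stays between -0.12 and 0.10. The contractile and basal keratin lists hold genes that chose the barcodes.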

How the data were processed

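The deposited matrices hold raw UMI counts per gene and barcode for 32285 genes, per the file headers. The mm10 build, Seurat 4.2.0 and Cell Ranger 5.0.0 are named in the submitters' processing notes, and the extraction protocol names reagents of differing chemistry versions. The rule by which barcodes were selected for deposit is not given in the sources used here. Each pool was deposited as 2 entries that differed in 0 gene counts and was read once.

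Hashtags 1 and 2 were called with HTODemux (Seurat 5.3.0, R 4.3.3, positive quantile 0.99) over barcodes of at least 1000 UMIs and 500 genes. The relative rule needed a ratio of 2 between tags divided by their background, the raw margin rule a ratio of 4 and 50 counts. Counts were summed over the barcodes of a pool or culture and divided by their total (Python 3.11.15, numpy 2.4.6, scipy 1.17.1, pandas 2.3.3, matplotlib 3.10.9). No test was made, since there was 1 culture per condition. Ratios have exact conditional binomial 95% intervals and shares exact Clopper-Pearson ones. A gene was measured with 50 UMIs over both groups and 5 CPM in 1 of them, and counted as higher or lower past 1.5-fold on log2(CPM + 10). Medians of lists are over such genes, not over all listed. Barcodes were thinned to 3000 UMIs for shares. The calculation was checked on simulated counts.

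Genes were named from those with at least 200 UMIs and 50 CPM: the 6 highest and 6 lowest ratios between pools, the 10 highest and lowest among carried genes, 6 each within a pair of cultures, members of a list past 1.5-fold (at most 4), and the markers at any level. List members below these minimums or beyond 4 (among them Wnt6, Dll1, Fn1 and the basement membrane genes), Egln3, Ndrg1, Slc2a1, Dusp1 and genes shown in the description of the profile were chosen after their values were seen. Members and lists were chosen with earlier results of these data known. Alternatives changed the hashtag rule, the limits, the pseudocount, the minimum and the summing, and left out deep barcodes. A gene past 1.5-fold is not reported here.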

Additional observations from a re-analysis of the deposited data

Results flagged for a closer look

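A further hashtag antibody (number 3) was listed in both pools although each pool held 2 cultures. Its counts in the basal myoepithelial barcodes summed to 965, with 589 in the COL1 and STIFF pool and 376 in the MATR and SOFT pool and at most 15 in a barcode. No culture is named for this tag, and the comparisons do not use it.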

How the results depend on the processing

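The ratios of named genes and of list members past 1.5-fold numbered 228, and 24 of their 2642 values under alternatives turned in sign. Of those past 1.5-fold, 23 of 40 between pools, 22 of 49 for COL1 over STIFF, 12 of 46 for MATR over SOFT, 18 of 31 for COL1 over MATR and 20 of 55 for STIFF over SOFT passed it under all alternatives. The share of basal myoepithelial barcodes was 9.4% and 4.03% in the 2 pools with both basal sums at 10 or more, and 10.2% in the COL1 and STIFF pool with Krt8 and Krt18 under 10. With a pseudocount of 1 CPM the genes higher and lower numbered 230 and 197 between pools, 406 and 481 for COL1 over STIFF, 414 and 327 for MATR over SOFT, 285 and 245 for COL1 over MATR, and 617 and 409 for STIFF over SOFT. With no minimum but 1 UMI they were 599 and 402 for MATR over SOFT and 718 and 523 for STIFF over SOFT, with 132 lower for COL1 over MATR. As means of CPM per barcode, 297 were lower for COL1 over STIFF and 142 for COL1 over MATR. The relative rule gave 128 and 91 for MATR over SOFT and 177 and 124 for STIFF over SOFT. The raw margin rule, which background alone could meet for STIFF and for SOFT, gave 465 and 397 for COL1 over STIFF. It gave 127 and 121 for STIFF over SOFT, with 180 lower for COL1 over MATR. Among barcodes of 6000 to 20000 UMIs, an alternative added after seeing the data like the one without barcodes over 3 times the median depth, 151 were lower for STIFF over SOFT. For COL1 over STIFF Saa1 turned to -1.07 (sums at 10), -0.44 (6000 to 20000 UMIs), -0.09 (mean per barcode), -0.03 (relative rule) and -0.20 (raw margin), and Saa2 to -0.93 (sums at 10) and -0.78 (6000 to 20000 UMIs). Top2a turned there to 1.02 (6000 to 20000 UMIs) and 0.02 (raw margin). For MATR over SOFT Ifi27l2a turned to 0.41 and Wnt6 to 0.30 (raw margin), Igfbp2 to -0.05 (mean per barcode), Cldn4 to 0.97 and Krt19 to 0.46 (6000 to 20000 UMIs), and Saa2 to -0.39 (sums at 10) and -0.18 (Krt8 and Krt18 under 10). For COL1 over MATR Mki67 turned to 0.81 (6000 to 20000 UMIs) and 0.31 (raw margin), and for STIFF over SOFT Areg to 0.14 (Krt8 and Krt18 under 10), 0.06 (6000 to 20000 UMIs) and 0.08 (relative rule). Leaving out barcodes with a UMI of Mki67 or Top2a, which are in the cell cycle list, turned Birc5 to 0.01 and Ube2c to 0.01 between pools, Cdk1 to 0.28 for STIFF over SOFT, and the median of the list to 0.03 for MATR over SOFT and 0.32 for STIFF over SOFT. The causes were not tested. Over the alternatives for COL1 over STIFF the log2 ratio ranged from 2.87 to 4.09 for Adm, 1.41 to 1.83 for Vegfa, 1.09 to 1.61 for Car9, -2.60 to -1.37 for Krt15 and -2.37 to -1.19 for Hpgd, and the median of the low oxygen list from 0.59 to 0.80. No paired analysis was possible because each condition was 1 culture. Trimmed mean scaling would move log2 ratios by at most 0.05. SOFT, with 39 barcodes and 571434 UMIs, limits the depth most.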
